A study of Mus musculus with 2 samples.

Results

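Interferon-stimulated genes were followed across the leukocytes of the mouse adrenal gland. The 32 members were taken as a list of named genes, and 31 of them had a row among the 32285 genes of the count matrices, while Mx1 was not analysed here. Leukocytes had been sorted by their surface CD45 from the adrenal glands of C57BL/6 mice at 7 weeks of age, and single cells were captured in droplets for RNA sequencing. There was 1 library from female mice and 1 from male mice, with no treatment and no stated number of animals, so sex and library cannot be told apart and no test across animals was possible. After filtering, 3694 female cells with 15045146 unique molecular identifiers (UMIs) and 2449 male cells with 9035910 UMIs remained, and the median cell held 3489.5 UMIs in the female and 3008 UMIs in the male library. Cells were assigned to 13 classes by canonical markers, and the ungated remainder was 16% (female) and 16.2% (male). At least 1 UMI of Ptprc, which encodes CD45, was present in 83.3% of female cells and in 76.1% of male cells, and 2 cell barcodes occurred in both libraries.

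Interferons are secreted proteins that warn cells of infection. Type I interferons bind a receptor made of Ifnar1 and Ifnar2, which activates the kinases Jak1 and Tyk2 and a complex that holds Stat2 and Irf9. That complex binds the interferon-stimulated response element in promoters and switches on genes whose products block viral entry, translation and replication, sense foreign nucleic acids or restrain the response. Interferon gamma uses another receptor, of Ifngr1 and Ifngr2. Macrophages and monocytes are known for a low constant level of such transcripts in the absence of infection.

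The members can be read at their promoters, where the response element has a recognisable form. A simplified response element, GAAA followed by any 2 bases and GAAA again, was searched on both strands (TTTC, any 2 bases and TTTC on the other) in the 250 bases before each start of the RefSeq promoters of build GRCm38.p6, counting overlapping matches. A promoter was found for 23 of the 32 members, and 13 of these held the motif (56.5%). Of all 27025 genes with a promoter in the same collection, 936 held it (3.46%). The last 160 bases before the start of 4 members that held the motif and recur in the results below are printed 5′ to 3′ on the strand of the gene, with the motif in capitals. They lie at chr4:156200819-156200978 (Isg15, minus strand), chr19:34583369-34583528 (Ifit3, plus strand), chr12:26456453-26456612 (Rsad2, minus strand) and chr8:71537473-71537632 (Bst2, minus strand).
Isg15: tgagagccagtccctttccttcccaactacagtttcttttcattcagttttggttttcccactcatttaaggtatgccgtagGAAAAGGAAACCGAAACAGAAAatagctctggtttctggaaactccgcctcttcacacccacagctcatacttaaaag
Ifit3: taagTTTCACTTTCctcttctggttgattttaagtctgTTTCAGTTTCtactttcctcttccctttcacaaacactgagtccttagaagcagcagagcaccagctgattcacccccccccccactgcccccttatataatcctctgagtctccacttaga
Rsad2: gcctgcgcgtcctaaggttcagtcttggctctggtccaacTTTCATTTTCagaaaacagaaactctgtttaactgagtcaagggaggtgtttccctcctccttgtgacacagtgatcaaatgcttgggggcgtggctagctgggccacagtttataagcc
Bst2: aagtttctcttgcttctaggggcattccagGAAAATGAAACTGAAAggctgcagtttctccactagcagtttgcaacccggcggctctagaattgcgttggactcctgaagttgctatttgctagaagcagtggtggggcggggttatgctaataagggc
Isg15 held 3 overlapping matches in one run, the nearest of which began 66 bases before the start. The nearest match began 122 bases before the start in Ifit3, 120 bases in Rsad2 and 124 bases in Bst2. A match is a description of these letters and not a shown binding site.

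Levels were raw UMIs of a gene per 1000000 UMIs of the same class and library, written as CPM. The kit counts 3′ ends, so values were not divided by transcript length. Over all gated cells the members together reached 2482 CPM in the female library (95% Poisson interval 2454 to 2510.2) and 2601 CPM in the male library (2565 to 2638). Intervals here and below cover counting error only, since UMIs of 1 library say nothing of the spread between animals. The sum was uneven. Ifi27l2a (ENSMUSG00000079017, chr12:103442167-103443680, minus strand), a small protein of membranes that interferon induces, had 901 and 869.9 CPM, which was 36.3% of the members' UMIs in the female and 33.4% in the male library.

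The next members in the order of mean level were far lower. Bst2 (tetherin, which holds budding virus at the cell surface) had 207 CPM in the female and 256 CPM in the male library. Ifi203, of the Ifi200 family of DNA-binding proteins, had 240.3 and 219 CPM. Trim30a, a ubiquitin ligase of the antiviral TRIM family, had 133 and 139 CPM. Other genes of the Ifi200 family followed, Ifi209 at 93.7 and 90.3 CPM and Ifi204 at 71.3 and 86.6 CPM.

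Between them lay Phf11b (84.2 and 99.1 CPM), Slfn5 of the schlafen family (76.2 and 95.4 CPM) and Parp14, an ADP-ribosyltransferase (77.7 and 86.7 CPM). Zbp1, a sensor of left-handed nucleic acid, had 61.0 and 65.9 CPM, and Rtp4 had 54.2 and 67.7 CPM. Isg15, a ubiquitin-like modifier that is among the most strongly induced of these genes, had 50.6 and 66.2 CPM. The lowest member was Ifit3b at 3.17 and 5.18 CPM, with 39 female and 39 male UMIs. Several members have near-identical neighbours whose reads counting may have split or dropped, among them Ifit3 and Ifit3b, the Oas1 and Oasl genes and the Ifi200 cluster, where Ifi203 overlaps Mndal on the same strand.

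The first question was whether transcripts of the interferons themselves were counted in these cells. A list of 10 interferon genes was used, and other interferon genes were not looked up. No UMI of Ifnb1, Ifna1, Ifna2, Ifna4, Ifna5, Ifne, Ifnl2 or Ifnl3 was counted in either library, which allowed a share of cells with a UMI of up to 0.0812% in the female and 0.122% in the male library (3 cells of the total). This limits cells with a UMI, not cells that transcribe these genes at a level too low to be counted. Ifnk had 1 UMI in 1 male cell. Ifng, the gene of interferon gamma, had 477 UMIs in 253 female cells and 308 UMIs in 168 male cells. Of these UMIs, 259 lay in natural killer (NK) cells and 157 in T cells of the female library, and 192 and 71 in those of the male library.

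The receptor genes were measured in most classes. Over all gated cells Ifnar1 had 61.3 and 66.9 CPM and Ifngr1 295 and 316 CPM. Of the 5 receptor genes with enough UMIs, 3 were at least 2-fold higher in macrophages than in the other gated cells in both libraries, against 12.3% of all genes tested. Ifnar2 had 241 CPM in female and 249 CPM in male macrophages and 34.0 and 37.5 CPM in B cells. Ifngr2 had 133 and 142 CPM in macrophages and 0.571 and 0.594 CPM in NK cells. Il10rb, a chain shared by the receptors of interferon lambda and interleukin 10, had 190.3 and 184 CPM in macrophages. Ifnlr1, the chain particular to interferon lambda, had 2 female UMIs and 1 male UMI over all gated cells.

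The second question was in which leukocytes the members were high. Classical monocytes had 8811 CPM (8527 to 9102) in the female and 5675 CPM (5343 to 6022) in the male library. Plasmacytoid dendritic cells, of which only 13 female and 6 male were found, had 7632 CPM (6724 to 8629) and 8583 CPM (7149 to 10219). When the cells were clustered, none of these fell in a cluster of that name, and neither did any of the type 1 dendritic cells. All 13 female and 6 male plasmacytoid cells fell in clusters named as another class. So did 30 of 34 female and 31 of 36 male type 1 dendritic cells. Both classes therefore rest on the marker gate. Macrophages had 4213 CPM (4139 to 4288) and 4232 CPM (4154 to 4312). At the lower end, T cells had 1943 and 1655 CPM, B cells 1816 and 1565 CPM, NK cells 1004 and 1029.7 CPM, type 2 innate lymphoid cells (ILC2) 795 and 524 CPM, and mast cells or basophils 433 and 377 CPM. In the sum of all members NK cells lay below T and B cells in both libraries, with intervals that did not overlap. Without Ifi27l2a, an alternative chosen after seeing the data, NK cells no longer lay below B cells. They had 968 CPM in NK and 941 CPM in B cells of the female library and 1002 and 877 CPM in those of the male library. T cells had 1149 and 1108 CPM. No intervals were computed for these sums, and the female values of NK and B cells lie close, so their order is not settled.

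**Figure D1:**
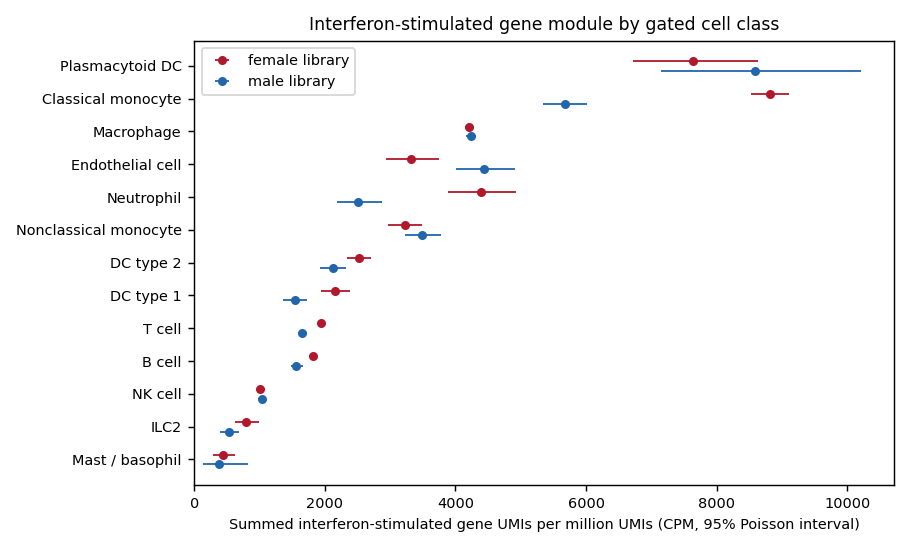
Summed CPM of the 31 measured members (horizontal axis) in 13 gated classes, 1 point per library with its 95% Poisson interval. Classical monocytes (8811 and 5675 CPM) and plasmacytoid dendritic cells lie above the macrophages (4213 and 4232 CPM) in both libraries, and NK cells lie far below them (1004 and 1029.7 CPM).

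Neutrophils, endothelial cells and nonclassical monocytes came near the macrophages in at least 1 library. Neutrophils had 4383 CPM (3885 to 4928) in 40 female cells and 2512 CPM (2185 to 2873) in 48 male cells. Endothelial cells, which are not leukocytes but were present in the sort, had 3322 CPM in 30 female cells and 4439 CPM in 35 male cells. Nonclassical monocytes had 3220 and 3495 CPM. Type 2 dendritic cells had 2520.4 and 2118 CPM, and type 1 dendritic cells 2152 and 1539 CPM.

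Members were called higher in a class when their CPM was at least 2 times that of all other gated cells in both libraries, with at least 20 UMIs in all. In macrophages 17 of the 31 members were higher, against 12.3% of the 12637 genes tested, and none were lower, against 14.1%. The median difference of the members was 1.22 in the female and 1.24 in the male library on the log2 scale, beside -0.15 and -0.11 over all genes. All 17 had intervals above 1 in both libraries. At a ceiling of 1.2% mitochondrial UMIs, a number from the study's methods whose scale is unsettled, where 327 barcodes (female) and 359 (male) were left, the members' sum in female macrophages turned from 2.17 to 0.848 times the other cells, and that in male macrophages was 1.46 times. The 17 included genes of the oligoadenylate synthetase family, which recognises double-stranded RNA. Oasl2 had 148 CPM in female and 134 CPM in male macrophages, 8.24 times (6.88 to 9.91) and 7.65 times (6.03 to 9.80) the level of the other cells. Oas2 had 29.5 and 25.8 CPM, 8.67 times and 10.5 times the other cells, and Oas1a had 53.6 and 35.3 CPM, 5.24 times and 5.96 times.

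Ifi204 was far lower in lymphocytes. It had 211 CPM in female and 196 CPM in male macrophages, and between 1.39 and 6.54 CPM in B, T and NK cells of either library. Of the RNA sensors, Ifih1 (the helicase MDA5) had 53.9 and 49.4 CPM in macrophages, 4.52 times and 3.90 times the level of the other cells. Dhx58 (LGP2) had 33.0 and 35.3 CPM, 2.87 times and 4.12 times the other cells. Ddx58 (RIG-I) was not called in macrophages, where it had 43.6 and 36.8 CPM beside 72.0 and 66.0 CPM in NK cells. Bst2 had 503 and 536 CPM in macrophages, 4.37 times and 5.11 times the other cells, and Isg15 had 84.1 and 110.5 CPM, 2.10 times and 2.61 times.

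The remaining macrophage calls ran from the highest level to low ones. The most abundant were Ifi27l2a (1620.4 and 1554 CPM, 2.39 times and 3.10 times), Phf11b (163 and 174 CPM, 2.73 times and 2.97 times), Slfn5 (135 and 149 CPM, 2.33 times and 2.25 times) and Rtp4 (119.5 and 136 CPM, 3.52 times and 4.42 times). Stat2, a subunit of the response complex, had 56.7 and 50.9 CPM, 2.83 times and 2.77 times the other cells. The scarce transcripts were Ifit3 (34.3 and 26.2 CPM, 2.71 times and 3.37 times), Ifit3b (6.18 and 9.87 CPM, 2.76 times and 3.72 times), Ifi44 (13.1 and 15.2 CPM, 2.92 times and 2.01 times) and Oasl1 (13.7 and 23.2 CPM, 2.93 times and 5.40 times), where Ifit3 and Ifit3b belong to the family that binds foreign RNA. Among the 14 members that were not called, Xaf1, a protein linked to cell death, had 87.6 and 91.5 CPM, 2.16 times and 1.91 times, and Ifit2 had 18.5 and 27.0 CPM.

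In classical monocytes 17 members were higher as well, against 5.68% of all genes tested, and none were lower, against 27.1%. The median of the members was 2.06 in the female and 1.06 in the male library on the log2 scale, with -0.44 and -0.51 over all genes, and 15 of the 17 had intervals above 1 in both libraries. Irf7, the transcription factor that amplifies the type I response, had 303 and 193 CPM, 8.20 times (6.67 to 10.0) and 4.33 times (3.00 to 6.10) the other cells. Slfn5 had 467 and 385 CPM, 7.46 times and 4.39 times the other cells. Cmpk2, a nucleotide kinase that lies beside Rsad2 in the genome, had 60.5 and 72.9 CPM, 8.47 times and 7.75 times. Rsad2 (viperin, which makes a chain-terminating nucleotide) had 121 and 62.5 CPM, 7.02 times and 2.68 times. Isg15 had 242 and 182 CPM, 5.52 times and 2.89 times.

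Among the sensors, the Ifi200 genes Ifi204 (417 and 401 CPM, 7.03 times and 5.11 times) and Ifi209 (354 and 187 CPM, 4.17 times and 2.14 times) were called in classical monocytes, with Zbp1 (257 and 135 CPM, 4.73 times and 2.11 times). The helicases were Ifih1 (43.6 and 62.5 CPM, 2.06 times and 2.55 times) and Dhx58 (75.1 and 36.4 CPM, 5.16 times and 2.09 times). Ifi27l2a had 4052 and 2254 CPM, 5.12 times and 2.70 times. The oligoadenylate synthetases were Oasl2 (191 and 156 CPM, 4.36 times and 2.79 times), Oas1a (79.9 and 52.1 CPM, 4.34 times and 3.41 times), Oas2 (29.1 and 20.8 CPM, 3.26 times and 2.01 times) and Oas3 (96.9 and 88.5 CPM, 6.00 times and 5.46 times), and the last calls were Ifit3 (82.3 and 52.1 CPM, 5.29 times and 3.94 times) and Usp18 (48.4 and 62.5 CPM, 3.94 times and 3.55 times).

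Other genes of the pathway were counted in the same way. Of all genes, 12.3% were higher and 14.1% lower in macrophages by this call, and 5.68% and 27.1% in classical monocytes. In macrophages 6 of 20 further type I targets were higher (Ifitm3, Lgals3bp, Eif2ak2, Ifi207, Tor3a and Parp12), with Ifitm3, which blocks entry of virus from endosomes, at 1068 and 991 CPM. Of 18 targets of interferon gamma, 1 was higher in macrophages (Ciita, the regulator of MHC class II genes, at 94.4 and 155 CPM) and 2 were lower (Gbp4 and Tgtp1). In classical monocytes 5 of the 20 type I targets were higher, and of the 18 interferon gamma targets 3 were higher (Gbp2, Gbp3 and Cxcl10) and 5 lower (Gbp4, Iigp1, Tgtp1, Cxcl9 and Ciita). Of the restraining and nucleic acid processing genes listed, 7 had enough UMIs and none was higher in macrophages. Socs1 and Socs3, which restrain cytokine receptors, and Isg20, an exonuclease that interferon induces, were lower.

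**Figure D2:**
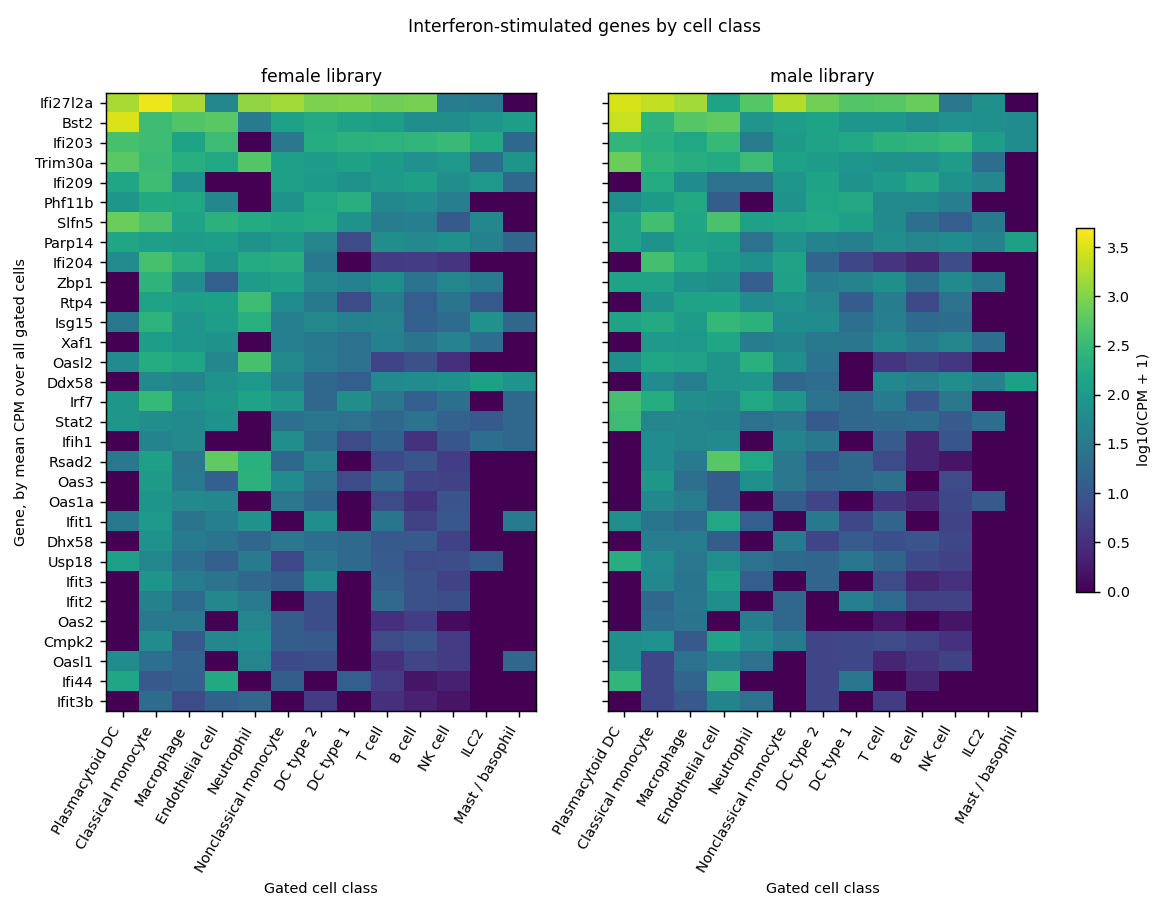
Level of each measured member (rows, by mean CPM over all gated cells) in each gated class (columns) as log10(CPM + 1), for the female and male libraries. Ifi27l2a is high in monocytes, macrophages, dendritic, B and T cells and low in NK, endothelial and mast cells. Rsad2 and Ifi44 are highest in endothelial cells.

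In neutrophils 10 members were higher, against 7.87% of all genes tested, and 7 were lower, against 49.8%, with intervals clear of 1 in both libraries for 7 of the 10 and 4 of the 7. Isg15 had 219 CPM in the female and 237 CPM in the male neutrophils, 4.41 times and 3.69 times the other cells. Rsad2 had 219 and 166 CPM. These levels rested on few cells, as 5 cells held 64.3% and 80% of the Isg15 UMIs and 92.9% and 78.6% of those of Rsad2. For Trim30a the shares were 48.5% and 37.9%. The other members called higher were Ifit3b, Irf7, Oasl1, Oasl2, Oas2, Oas3, Cmpk2 and Trim30a. Their UMIs ran from 33 (female) and 29 (male) for Trim30a and 27 and 19 for Oasl2 down to 1 and 2 for Ifit3b. The sum in female neutrophils turned from 1.77 to 0.463 times the other cells with the ceiling of 1.2%. In male neutrophils it was 0.965 times (0.839 to 1.11) at the reported settings and 0.646 times with that ceiling. Bst2, high in macrophages, had 31.3 and 82.9 CPM in neutrophils. Ifi27l2a was 1.38 times the other cells in the female library (1.09 to 1.72) and 0.610 times (0.445 to 0.817) in the male library. The 5 cells richest in it held 63.3% and 82.2% of its UMIs.

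In plasmacytoid dendritic cells, known as the main source of type I interferon during infection, 6 members were higher, against 5.45% of all genes tested, and 11 were lower, against 49.6%. Intervals were clear of 1 in both libraries for 4 of the 6 and for none of the 11. Bst2, a known surface marker of these cells in the mouse, had 3203 and 2452 CPM, 16.1 times (13.1 to 19.6) and 9.75 times (6.81 to 13.5) the other cells. Ifi44 had 149.7 and 272 CPM, Usp18 (which removes Isg15 from proteins and damps the receptor) 119.7 and 204 CPM, and Trim30a 569 and 749 CPM. Oasl1 and Stat2, also called, had 59.9 and 68.1 CPM and 89.8 and 341 CPM. All UMIs of Usp18 and of Oasl1 lay in 1 cell of each library (7.69% of female and 16.7% of male cells). The male UMIs of Ifi44 also lay in 1 cell. With 19 such cells over both libraries, 13 members had no UMI in the female and 14 had none in the male library.

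Endothelial cells had 9 members higher, against 14.3% of all genes tested, and 3 lower, against 23.6%, with intervals clear of 1 in both libraries for 8 of the 9 and 2 of the 3. Rsad2 had 621 CPM in the female and 553 CPM in the male library, 36.9 times (26.4 to 50.5) and 30.5 times (21.5 to 42.7) the other gated cells. Ifi44 had 177 and 288 CPM, 32.9 times and 41.3 times. Bst2 had 571 and 623 CPM, Slfn5 241 and 438 CPM, Isg15 114 and 288 CPM and Cmpk2 50.7 and 138 CPM, and the other calls were Ifit2, Ifit3b and Rtp4. With the ceiling of 1.2% the sum in female endothelial cells went from 1.34 to 0.619 times the other cells, with an interval (0.227 to 1.35) that included 1. In male endothelial cells it went from 1.72 to 2.19 times (1.69 to 2.80). Without Ifi27l2a the sums were 2.08 times (female) and 2.53 times (male). Ifi27l2a was the reverse, with 50.7 and 138 CPM, 0.0560 times and 0.158 times the other cells. Lyz2, a gene of macrophages and monocytes, had 76.1 CPM in the female and 4208 CPM in the male endothelial cells, and 1 cell held 77.0% of the male Lyz2 UMIs. A UMI of any of the 6 macrophage markers occurred in 13 of 30 cells (female) and in 19 of 35 cells (male). Without those cells, a choice made after seeing the data, Rsad2 had 828 CPM (531 to 1233) and 349 CPM (167 to 642), and Ifi44 had 242 and 314 CPM.

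NK cells had no member higher, against 6.06% of all genes tested, and 23 lower, against 17.6%, and all 23 had intervals below 1 in both libraries. The median of the members was -1.61 and -1.86 on the log2 scale, beside 0.11 and 0.10 over all genes. The sum was 0.327 and 0.337 times the other cells, and without Ifi27l2a 0.531 and 0.516 times. Ifi27l2a had 35.7 CPM in the female and 27.9 CPM in the male NK cells, beside 1620.4 and 1554 CPM in macrophages. At 1000 UMIs per cell it had a UMI in 2.85% and 1.91% of NK cells, in 32.6% and 29.4% of T cells and in 70.3% and 68.4% of macrophages. Without this thinning the shares were 11.8% and 11.7% in NK cells and 84.3% and 76.5% in macrophages, at median depths of 4109.5 and 4848.5 UMIs and of 3292 and 2373 UMIs. Apoe, an abundant macrophage transcript that lymphocytes should lack, had 183 and 156 CPM in NK cells and 32756 and 19693 CPM in macrophages. Ifi203 went the other way, with 314 and 316 CPM in NK cells and 140.1 and 162 CPM in macrophages.

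B cells had no member higher, against 4.16% of all genes tested, and 19 lower, against 23.8%. T cells had none higher, against 4.1%, and 8 lower, against 19.6%. Intervals lay below 1 in both libraries for 18 of the 19 and for all 8. Ifi27l2a was not called lower in either, with 875 and 688 CPM in B cells (0.967 and 0.774 times the other cells). In T cells it had 794 and 547 CPM (0.851 and 0.578 times). It made up 48.2% and 44.0% of the members' UMIs in B cells. Within T cells, in a split chosen after the values were seen, cells with a Cd4 UMI had 1771 CPM (1631 to 1919) in the female and 674 CPM (553 to 814) in the male library. Cells with a Cd8a or Cd8b1 UMI had 553 and 496 CPM. Among the remaining classes, nonclassical monocytes had 1 member higher (Zbp1, at 128 and 131 CPM, against 7.22% of all genes) and 3 lower, against 28.2%, with intervals clear of 1 in both libraries for Zbp1 and 1 of the 3. Type 2 dendritic cells had 1 higher (Ifit1, at 68.2 and 30.0 CPM, against 3.98%) and 4 lower, against 27.3%, with intervals clear of 1 in both libraries for none of the former and 1 of the 4. None were higher in the last classes, of at most 36 cells per library. Type 1 dendritic cells (2.9% of genes higher) had 14 lower, against 33.8%, ILC2 (5.09% higher) 20 lower, against 28.7%, and mast cells or basophils (5.82% higher) 23 lower, against 40.3%. Intervals lay below 1 in both libraries for 4 of the 14, 7 of the 20 and 1 of the 23.

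The third question concerned macrophage subsets, gated within the macrophages by short marker lists. A member was counted when its CPM differed at least 1.5-fold from that of the other macrophages in both libraries, with at least 50 UMIs in all macrophages, which 30 members had. The Aldh1a2-high subset (37 female and 59 male cells, marked by Aldh1a2, Retnla, Lyz1, Ear2, Fn1 and Fcrls) stood lowest. There 23 of 30 members were lower, against 16.6% of 8051 genes, and none were higher, against 9.02%. The interval lay below 1 in both libraries for 10 of the 23 and in at least 1 library for 16, as many had few UMIs in so few cells.

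Without Ifi27l2a the members summed to 1111 CPM in the female and 1097 CPM in the male Aldh1a2-high cells, 0.419 times (0.348 to 0.50) and 0.392 times (0.339 to 0.450) the other macrophages. Bst2 had 160 CPM beside 517 CPM in the other macrophages of the female library and 250.2 CPM beside 558 CPM in the male library. Ifi204 had 80.0 CPM beside 216 CPM and 58.6 CPM beside 206 CPM. Rtp4 had 35.6 CPM beside 123 CPM and 31.9 CPM beside 144 CPM. Ifi27l2a did not follow, at 1298 CPM (0.795 times) and 1560.1 CPM (1.0 times).

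**Figure D3:**
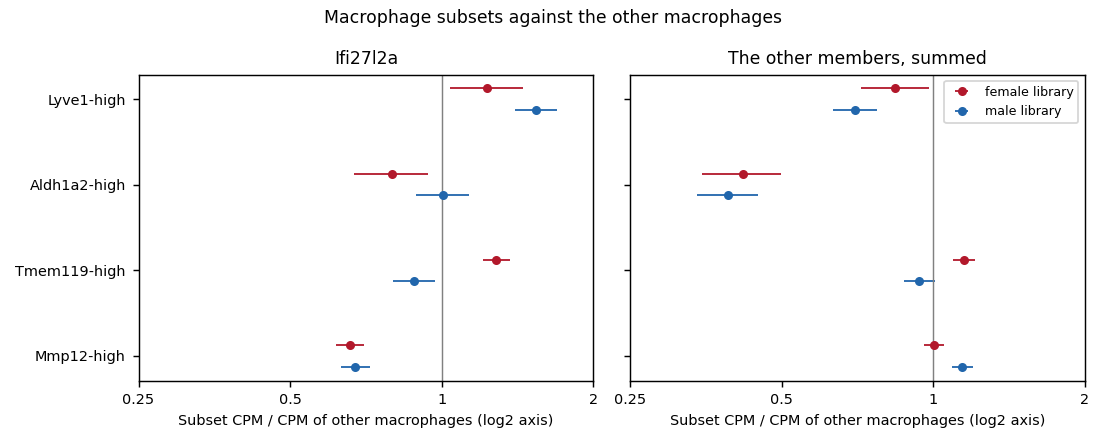
Ratio of CPM in each macrophage subset to the other macrophages (log2 axis), with 95% intervals, for Ifi27l2a (left) and for the other members summed (right) in each library. The other members of Aldh1a2-high cells lie at 0.419 and 0.392, while Ifi27l2a lies near or somewhat below 1.

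Lyve1-high macrophages (40 and 92 cells) had 7 members lower, against 14.4% of genes, and 1 higher, against 13.6% (Cmpk2, with 2 and 5 UMIs). None of these had intervals that excluded 1 in both libraries. Ifi27l2a was higher there, at 1982 and 2294 CPM, 1.23 times (1.04 to 1.45) and 1.54 times (1.40 to 1.69) the other macrophages. The rest of the members summed to 0.841 times and 0.701 times. Mmp12-high macrophages (275 and 252 cells) had the reverse for Ifi27l2a, 1227 and 1203 CPM, 0.658 times (0.617 to 0.701) and 0.674 times (0.630 to 0.720), with no member past 1.5-fold in both libraries, against 1.79% of genes higher and 3.11% lower. Tmem119-high macrophages (142 and 74 cells) had 1 member higher (Ifi44, at 27.0 and 22.8 CPM), against 1.37%, and none lower, against 4.99%. Its male ratio of 1.62 (0.647 to 3.6) rested on 8 UMIs.

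Macrophages were also divided by MHC class II, with cells called low at 10 or fewer UMIs per 1000 from Cd74, H2-Eb1, H2-Ab1 and H2-Aa together. There were 168 low of 687 female and 55 low of 668 male macrophages of at least 1000 UMIs. Ifi27l2a was higher in the low cells of both libraries, at 1958 CPM beside 1511 CPM in the female (1.30 times, 1.22 to 1.38) and 2127 CPM beside 1549.8 CPM in the male library (1.37 times, 1.23 to 1.53). The other members summed to 1.19 times (1.13 to 1.25) in the female and 0.843 times (0.759 to 0.934) in the male library. Cmpk2 alone passed 1.5-fold upwards in both, against 4.54% of genes, and none passed it downwards, against 2.72%. It had 13 female and 5 male UMIs in the low cells, and its male interval (0.959 to 8.87) included 1.

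The fourth question was whether the female and the male library differed. In macrophages the female to male ratio of the sum was 0.995 (0.970 to 1.02), and 1.03 (1.004 to 1.06) when classes were taken from clusters. Subsets went opposite ways, with 1.23 (1.15 to 1.31) in Tmem119-high macrophages, 0.934 (0.895 to 0.974) in Mmp12-high macrophages and 0.908 (0.868 to 0.949) in macrophages outside the 4 subsets. Of 30 members with at least 50 UMIs, the female library exceeded the male by 1.5-fold or more for 1, against 2.68% of 8051 genes, and fell short by as much for 1, against 5.86%. Oas1a had 53.6 CPM in female and 35.3 CPM in male macrophages, a ratio of 1.52 (1.17 to 1.98). Oasl1 had 13.7 and 23.2 CPM, a ratio of 0.593 (0.388 to 0.898). Igkc, an antibody gene, had 6123 CPM in the female and 32.3 CPM in the male macrophage gate, and 2 female cells were above 1% Igkc. Without them, an alternative chosen after seeing the data, the ratio of the sum was 1.01.

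**Figure D4:**
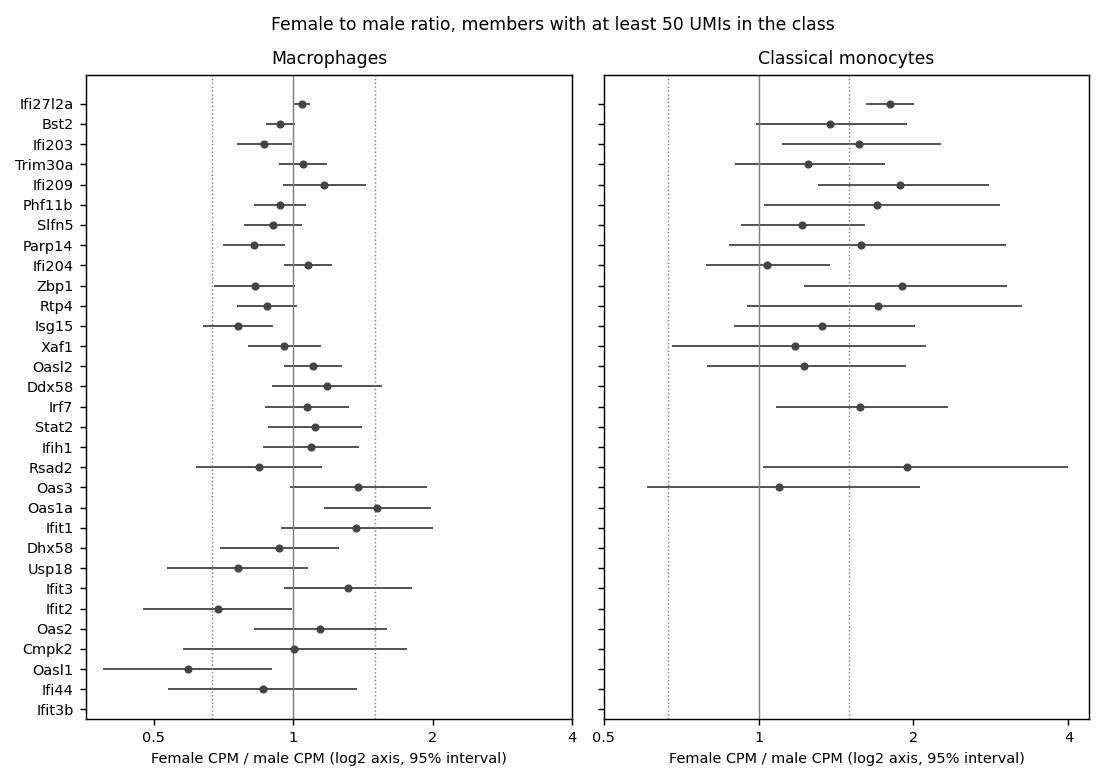
Female to male ratio of CPM (log2 axis, 95% interval) for members with at least 50 UMIs in macrophages (left) and classical monocytes (right), dotted lines at 1.5-fold either way. In macrophages 28 of 30 members lie within 1.5-fold, and in classical monocytes all 17 lie above 1.

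In classical monocytes the ratio was 1.55 (1.45 to 1.66) over 120 female and 50 male cells, with an interval that covers counting error only. There 9 of 17 members were higher in the female library, against 6.62% of 1768 genes, and none were lower, against 7.41%. Ifi27l2a had 4052 CPM in the female and 2254 CPM in the male cells, a ratio of 1.80 (1.62 to 2.00). Zbp1 had 257 and 135 CPM (1.90, 1.23 to 3.04), Ifi209 354 and 187 CPM (1.89, 1.30 to 2.80), and Rsad2 121 and 62.5 CPM (1.94, 1.02 to 4.00). Irf7 (1.57, 1.08 to 2.33), Ifi203 (1.57, 1.11 to 2.26) and Phf11b (1.70, 1.02 to 2.94) also had intervals above 1, while those of Rtp4 (1.71, 0.950 to 3.25) and Parp14 (1.58, 0.875 to 3.03) included it. Ifi204 had 417 and 401 CPM, a ratio of 1.04 (0.790 to 1.38). The 5 cells richest in Rsad2 held 62.0% of its UMIs in the female and 100% in the male library, and 5 cells held 16.5% and 40.2% of those of Ifi27l2a. When classes were taken from clusters instead of marker gates, the ratio of the sum was 1.22 (1.16 to 1.28).

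Over all gated cells the ratio of the sum was 0.954 (0.937 to 0.972). It was 1.45 with the ceiling of 1.2% and 1.01 without mitochondrial and ribosomal protein genes in the total. At the reported settings 3 members were lower in the female library by 1.5-fold or more, against 6.98% of 11008 genes. They were Ifit3b (3.17 and 5.18 CPM, 0.612, 0.382 to 0.979), Ifi44 (6.50 and 10.2 CPM, 0.636, 0.459 to 0.881) and Oasl1 (6.83 and 10.9 CPM, 0.627, 0.457 to 0.860). The ratio was 1.17 (1.12 to 1.23) in T cells and 1.04 (0.976 to 1.10) there without Ifi27l2a. In T cells Ifit1 was higher (26.6 and 15.3 CPM, 1.74, 1.07 to 2.94), against 3.37% of genes, and Slfn5 lower (35.4 and 55.5 CPM, 0.637, 0.470 to 0.865), against 4.62%. In B cells the ratio was 1.16 (1.08 to 1.24), and 1.07 (0.978 to 1.18) without Ifi27l2a. There 2 of 12 members were higher in the female library (Ddx58 and Slfn5), against 5.18%, and none lower, against 5.57%. The intervals of both genes included 1. NK cells had a ratio of 0.975 (0.92 to 1.03) with none of 15 members past 1.5-fold, against 2.39% higher and 4.98% lower. In endothelial cells the ratio was 0.748 (0.637 to 0.878) over 30 and 35 cells. It was 1.16 (0.893 to 1.51) over the 17 and 16 cells with no macrophage marker UMI, an interval that included 1. The ratio was 1.40 (1.19 to 1.64) in type 1 dendritic cells (1.13, 0.919 to 1.38, without Ifi27l2a), 1.19 (1.05 to 1.34) in type 2 dendritic cells and 1.52 (1.05 to 2.21) in ILC2. It was 0.889 (0.716 to 1.11) in plasmacytoid dendritic cells, where Ifi27l2a was lower in the female library (0.539, 0.355 to 0.822), 0.921 (0.821 to 1.03) in nonclassical monocytes and 1.15 (0.465 to 3.41) in mast cells or basophils. In neutrophils 2 of 2 members were higher (Ifi27l2a and Trim30a), against 9.28%, and the ratio of the sum was 1.75 (1.45 to 2.10) over 40 and 48 cells, but 1.05 (0.735 to 1.48) with the ceiling of 1.2%. The interval for Trim30a (1.5, 0.885 to 2.57) included 1.

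In macrophages low in MHC class II, 8 of 18 members were higher in the female library by 1.5-fold or more, against 13.6% of 2693 genes, and the sum had a ratio of 1.11 (1.03 to 1.21). Of the 8, Oasl2 (216 and 109.8 CPM, 1.97, 1.22 to 3.36) and Phf11b (162 and 80.9 CPM, 2.01, 1.15 to 3.78) had intervals above 1. In macrophages high in MHC class II the sum had a ratio of 0.938 (0.911 to 0.966), with none of 29 members higher, against 2.47%, and 2 lower, against 5.5%.

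The last question was whether the members were spread over all cells or carried by few. Every cell of at least 1000 UMIs was thinned to 1000 UMIs, which kept 3501 female and 2210 male cells. The count used an inducible core of 16 members, 15 of them measured (Isg15, the Ifit, Oas and Oasl genes, Ifi44, Irf7, Rsad2, Usp18 and Cmpk2). No core UMI was seen in 80.0% of female cells or in 78.4% of male cells. A cell was called interferon-high with at least 5 UMIs from at least 3 core genes. There were 30 such cells in the female library (0.857%, Clopper-Pearson 95% interval 0.579 to 1.22%) and 18 in the male library (0.814%, 0.483 to 1.28%). The share depended on the cut, at 2.37% and 3.30% with 3 UMIs from 2 genes and at 0.257% and 0.317% with 8 UMIs from 3 genes. With the ceiling of 1.2% it was 2.46% (0.997 to 5.01%) in the female library, and with 2000 UMIs per cell and 10 UMIs as the cut it was 0.521% and 0.498%. At the reported cut, interferon-high cells held 19.2% and 17.6% of all core UMIs. The cut lies on a continuous range, and a further 53 female and 57 male cells had 3 or 4 core UMIs.

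The interferon-high cells belonged to many classes. In the female library they were 7 classical monocytes (6.09% of that class), 6 macrophages (0.873%), 4 neutrophils (11.4%), 4 T cells (0.615%), 2 B cells, 1 NK cell, 1 endothelial cell and 5 ungated cells. In the male library they were 5 macrophages (0.749%), 4 endothelial cells (15.4%), 3 classical monocytes (6.38%), 3 neutrophils (7.89%), 1 T cell and 2 ungated cells. Of the 6 macrophage markers, the 4 male endothelial cells held 2, 0, 1 and 2, and the female endothelial cell held 0. The share was higher in classical monocytes (2.48 to 12.1% and 1.34 to 17.5%) than in macrophages (0.321 to 1.89% and 0.243 to 1.74%), though the intervals met in the male library. None was a nonclassical monocyte, dendritic cell, ILC2 or mast cell. The highest core count was 13 UMIs in a female and 17 UMIs in a male cell, the latter a neutrophil.

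The 16 members left out of the count gave a readout that the rule had not used. They had 11.0 UMIs per female interferon-high cell (9.88 to 12.3), beside 3.33 UMIs in other cells weighted to the same classes, and 8.67 UMIs (7.36 to 10.1) beside 2.81 UMIs in the male library. All 16 were above the other cells in both libraries. No fold or minimum of UMIs was asked for in that count, and the share of all genes above is not given. Stat2 and Ifih1 rested on 2 UMIs each in the 18 male cells. Zbp1 had 0.700 UMIs per cell beside 0.0823 in the female and 0.278 beside 0.0527 in the male library. Ifi203 had 1.0 beside 0.208 and 0.667 beside 0.140, and Ifi204 0.767 beside 0.144 and 0.444 beside 0.136. Bst2 had 0.700 beside 0.226 and 0.778 beside 0.392.

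**Figure D5:**
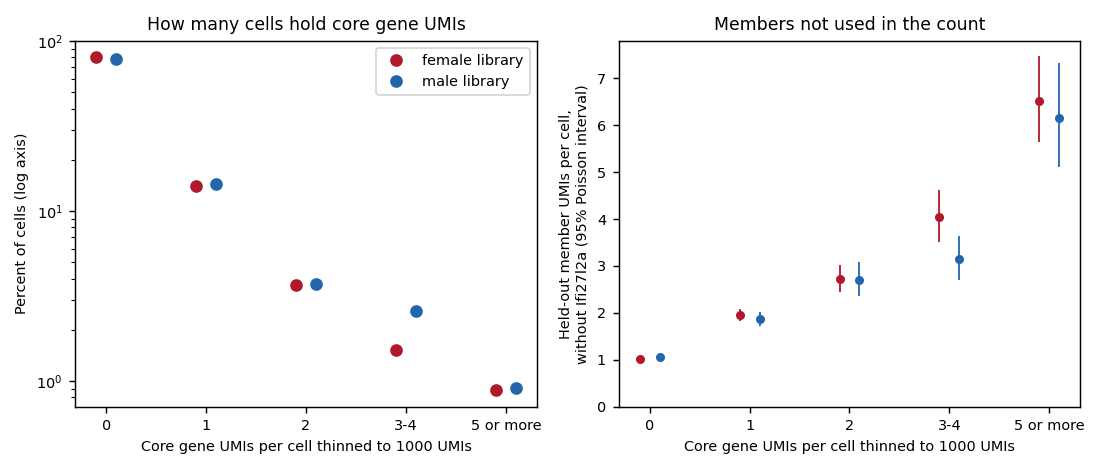
Left, percent of cells (log axis) by the number of core gene UMIs per cell thinned to 1000 UMIs. Right, mean UMIs per cell of the held-out members without Ifi27l2a, with 95% Poisson intervals, which go from 1.0 and 1.06 in cells with no core UMI to 6.52 and 6.15 in cells with 5 or more.

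The held-out members without Ifi27l2a had higher means at each step of core UMIs, over cells of all classes pooled and not weighted by class. They had 1.0 UMIs per cell in the female and 1.06 UMIs in the male library where no core UMI was seen, 1.95 and 1.86 at 1 core UMI, and 2.73 and 2.70 at 2. Cells with 3 or 4 core UMIs had 4.04 and 3.14, and cells with 5 or more had 6.52 (5.65 to 7.48) and 6.15 (5.11 to 7.34).

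Pathway genes outside the members were compared in the same cells. Ifitm3 had 3.90 UMIs beside 1.67 per female cell and 3.89 beside 1.57 per male cell, and Samhd1, which depletes nucleotides that viruses need, 1.07 beside 0.488 and 1.06 beside 0.407. The 20 further type I targets together were 2.13 times (1.90 to 2.38) and 2.24 times (1.94 to 2.56) the other cells. The 18 interferon gamma targets were 2.73 times and 1.97 times. The receptors were 0.780 times (0.455 to 1.25) and 0.849 times (0.452 to 1.45).

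Depth and cell quality were given beside these cells. The median of UMIs was 2982 in female interferon-high cells and 3667 in the other cells, and 3437.5 and 3404 in the male library. The median mitochondrial share was 2.46% beside 3.26% and 2.06% beside 2.87%. At least 2 markers each of 2 or more classes were found in 18 of the 30 female (60%) and 9 of the 18 male interferon-high cells (50%), beside 30.3% and 29.5% of the other cells, and the part of cell mixtures in this result was not tested.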

How the data were processed

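The authors sequenced 10x Genomics 3′ libraries and, per the labels, aligned and counted reads with Cell Ranger 4.0.0 and removed noise barcodes with DropletUtils 1.4.3. The submitters' processing notes name build mm10. The deposited values are raw counts of UMIs per gene and barcode. From these, barcodes with at least 200 genes and at most 15% mitochondrial UMIs were kept, because the ceiling of 1.2% that the methods state kept 8.25% (female) and 13.4% (male) of barcodes here. The methods state that far more cells were left, so that ceiling may be on another scale and its values here are not those of the study's own filter. Doublets were removed as the highest Scrublet scores (scanpy 1.11.5) at 0.8% per 1000 barcodes, since the automatic threshold marked 1 and 8 barcodes. This left 3694 of 3963 female and 2449 of 2685 male barcodes. A cell joined the class with the largest share of its 6 markers if at least 2 were detected and that share was at least 2 times the next. Classes are rebuilt ones, so differences from the study may come from them. Cells were thinned to 1000 UMIs where stated.

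With 1 library per sex no test was run and no p-value is given. CPM values carry exact Poisson intervals, ratios exact conditional binomial intervals and shares Clopper-Pearson intervals, all at 95%. Calls are folds (2-fold between classes, 1.5-fold between libraries and subsets) with minimum UMIs, and the share of all genes past the same call is printed beside them. Scripts were tested on simulated data. Named genes are the 12 highest members, those past a call between libraries with an interval that excluded 1, those called higher in a class, and pathway genes past the same calls with the interferons and receptors. The T cell split by Cd4 and Cd8 was chosen after its values were seen. The members, lists and marker genes were chosen with earlier results of these data known. Alternatives covered the mitochondrial ceiling, doublets, gate, clusters, normalisation, top members, top cells, thinning and the cut for interferon-high cells. Gene positions came from GENCODE M21 (GRCm38). Of the pathway genes, 1 is left out of the text.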

Additional observations from a re-analysis of the deposited data

Results flagged for a closer look

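In 4 results the female and the male library lay on opposite sides of 1, each with an interval that excluded 1. The differences between the libraries were not tested, since there was 1 library of each sex.

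Ifi27l2a in neutrophils was 1.38 times the other gated cells in the female and 0.610 times in the male library. Of its UMIs there, 5 cells held 63.3% (female) and 82.2% (male). Ifi27l2a in Tmem119-high macrophages was 1.28 times the other macrophages in the female (1.2 to 1.36) and 0.881 times (0.80 to 0.969) in the male library. All members summed in the same macrophages were 1.2 times and 0.918 times. All members without Ifi27l2a in macrophages low in MHC class II, against those high in it, were 1.19 times in the female and 0.843 times in the male library, on 168 and 55 low cells.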

How the results depend on the processing

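The sums of 5 classes (macrophages, classical monocytes, NK cells, neutrophils and endothelial cells), 4 female to male ratios (all gated cells, macrophages, classical monocytes and neutrophils) and the share of interferon-high cells were recomputed under the alternatives, which gave 159 values. For sums of the other classes, of macrophage subsets and by MHC class II, and for the other ratios, the only alternative left out Ifi27l2a, given above where printed. The endothelial ratio was also recomputed without marked cells (1.16). An alternative changed one choice, except that 3 UMIs from 2 genes, and 2000 UMIs with a cut of 10, each changed a pair together. Of these, 69 stayed within the interval of the reported value and 85 moved outside it in the same direction or without a call. The other 5 fell on the opposite side of 1 from a reported value whose interval excluded 1. All classical monocyte sums stayed above the other cells, between 3.24 and 4.06 times in the female and 1.68 and 2.63 times in the male library. All NK cell sums stayed below. The 5 values that crossed 1 in this way were in female macrophages, endothelial cells and neutrophils and in the ratio over all gated cells. They arose with the 1.2% ceiling and, for that ratio, also without mitochondrial and ribosomal protein genes. The cause was not tested. Intervals included 1 for female endothelial cells (0.619, 0.227 to 1.35) and for the ratio without mitochondrial and ribosomal protein genes (1.01, 0.989 to 1.025), so these show no direction. The 1.2% ceiling kept few cells, and the scale it refers to is unsettled. Classes of under 50 cells and members of few UMIs are limited by depth. The alternatives without Ifi27l2a, without marked endothelial cells and without Igkc-rich macrophages were chosen after seeing the data.

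With a mitochondrial ceiling of 5%, endothelial cells were at 1.58 times the other cells (female) and NK cells were at 0.306 times the other cells (female). There, the female to male ratio was 0.982 in all gated cells. With a mitochondrial ceiling of 1.2%, macrophages were at 0.848 times the other cells (female) and 1.46 (male) and classical monocytes were at 3.66 times the other cells (female) and 1.68 (male). Also, endothelial cells were at 0.619 times the other cells (female) and 2.19 (male) and neutrophils were at 0.463 times the other cells (female) and 0.646 (male). Then NK cells were at 0.229 times the other cells (female) and 0.368 (male) and the female to male ratio was 1.45 in all gated cells, 2.06 in classical monocytes, 1.05 in neutrophils. There, interferon-high cells were 2.46% in the female library. Without doublet removal, classical monocytes were at 2.11 times the other cells (male). With at least 3 markers for the gate, macrophages were at 2.61 times the other cells (male) and classical monocytes were at 4.06 times the other cells (female) and 2.09 (male). Also, NK cells were at 0.319 times the other cells (male) and the female to male ratio was 1.73 in classical monocytes. With classes from Leiden clusters built without the members, macrophages were at 2.08 times the other cells (female) and 2.17 (male) and classical monocytes were at 3.4 times the other cells (female) and 2.63 (male). Then neutrophils were at 1.5 times the other cells (female) and NK cells were at 0.342 times the other cells (female) and 0.355 (male). There, the female to male ratio was 0.989 in all gated cells, 1.03 in macrophages, 1.22 in classical monocytes. With CPM that left out mitochondrial and ribosomal protein genes, macrophages were at 1.80 times the other cells (female) and 2.10 (male) and classical monocytes were at 3.54 times the other cells (female). Also, endothelial cells were at 1.11 times the other cells (female) and 1.51 (male) and neutrophils were at 1.32 times the other cells (female) and 0.768 (male). Then the female to male ratio was 1.01 in all gated cells. Without Ifi27l2a and Ifi203, the 2 members with the most UMIs, macrophages were at 2.46 times the other cells (female) and 2.59 (male) and classical monocytes were at 3.57 times the other cells (female). There, endothelial cells were at 2.20 times the other cells (female) and 2.70 (male) and neutrophils were at 2.36 times the other cells (female) and 1.29 (male). Also, NK cells were at 0.405 times the other cells (female) and 0.392 (male) and the female to male ratio was 0.887 in all gated cells, 1.38 in classical monocytes. Without the 5 top cells of each class, macrophages were at 2.40 times the other cells (female) and 2.92 (male) and classical monocytes were at 3.59 times the other cells (female) and 1.84 (male). Then endothelial cells were at 1.52 times the other cells (female) and 1.33 (male) and neutrophils were at 1.35 times the other cells (female) and 0.727 (male). There, the female to male ratio was 1.78 in classical monocytes. With the median over members in place of their sum, macrophages were at 2.24 times the other cells (female) and 2.30 (male) and classical monocytes were at 4.06 times the other cells (female) and 2.10 (male). Also, neutrophils were at 2.06 times the other cells (female) and 0.826 (male) and NK cells were at 0.342 times the other cells (female) and 0.276 (male). Then the female to male ratio was 0.857 in all gated cells. With cells thinned to 2000 UMIs and a cut of 10 UMIs, interferon-high cells were 0.521% in the female library. With 3 UMIs from 2 genes as the cut, interferon-high cells were 2.37% in the female library and 3.30% in the male library. With 8 UMIs from 3 genes as the cut, interferon-high cells were 0.257% in the female library and 0.317% in the male library. Without Ifi27l2a, macrophages were at 2.04 times the other cells (female) and 2.19 (male) and classical monocytes were at 3.24 times the other cells (female) and 2.03 (male). There, endothelial cells were at 2.08 times the other cells (female) and 2.53 (male) and neutrophils were at 2.00 times the other cells (female) and 1.14 (male). Also, NK cells were at 0.531 times the other cells (female) and 0.516 (male) and the female to male ratio was 0.913 in all gated cells, 0.968 in macrophages, 1.39 in classical monocytes. Without endothelial cells that held a macrophage marker UMI, endothelial cells were at 1.80 times the other cells (female) and 1.49 (male).

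No paired analysis was possible because each group held 1 library.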
